A study of Mus musculus with 4 samples.

Results

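The BMP antagonists described here were 9 genes, chosen by symbol: *Nog*, *Grem1*, *Chrd*, *Chrdl1*, *Fst*, *Fstl3*, *Bmper*, *Twsg1* and *Bambi*. They were 9 of 32285 genes in the data, each matched to 1 row. The data were 4 single-cell RNA-seq libraries of tibial muscle from *Nse-Bmp4* mice, in which an *Nse* (neuron-specific enolase) promoter drives *Bmp4*, on a C57BL/6 background at 6 to 8 weeks of age. One library held muscle that was not injured (Uninjured), and the others held muscle taken 1, 3 or 7 days (dpi) after injection of cardiotoxin, a snake venom toxin that kills muscle fibres. Every library pooled 3 muscles and every mouse carried the transgene, so no library shows muscle without it. With 1 library per time point there was no test, and a difference between time points cannot be told apart from a difference between libraries. Intervals cover 95% counting error only.

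BMPs are secreted ligands that bind paired serine/threonine kinase receptors and act through Smad proteins on target genes such as *Id1*. Noggin, gremlin and chordin bind the ligands outside the cell and keep them from the receptors, and in cartilage and bone they limit where BMP signalling acts. Follistatins bind activins and myostatin as well as some BMPs. *Bmper* and *Twsg1* encode secreted proteins that can hold back or aid BMPs depending on context, and *Bambi* encodes a membrane receptor without a kinase domain.

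*Grem1* and *Chrd* were the members that differed most, in opposite directions, between the Uninjured and 7 dpi libraries, and the 250 bases before their start sites are shown for that reason. RefSeq promoter sequences (GRCm38.p6) were listed for 5 of 9 members. Both strands were searched for GGCGCC, a GC-rich motif that BMP Smads can bind, and for GTCTAGAC, a palindromic Smad motif; the 2 do not overlap. GGCGCC, in capitals in the sequences, was present once in the *Grem1* window and once in the *Chrd* window, and absent from the letters of the *Bmper*, *Fstl3* and *Twsg1* windows. Of all 32851 promoter windows of that length, 9.59% held GGCGCC. The *Grem1* and *Chrd* windows were 72% and 78% G or C, beside a median of 52.4% over all windows. That share is therefore no baseline for windows so rich in these bases. The *Bmper*, *Fstl3* and *Twsg1* windows were at 71.6%, 71.2% and 64.4%. GTCTAGAC was in none of the 5 windows and in 0.167% of all windows. The *Grem1* window is chr2:113758649-113758898 on the minus strand and the *Chrd* window is chr16:20732877-20733126 on the plus strand.
Grem1: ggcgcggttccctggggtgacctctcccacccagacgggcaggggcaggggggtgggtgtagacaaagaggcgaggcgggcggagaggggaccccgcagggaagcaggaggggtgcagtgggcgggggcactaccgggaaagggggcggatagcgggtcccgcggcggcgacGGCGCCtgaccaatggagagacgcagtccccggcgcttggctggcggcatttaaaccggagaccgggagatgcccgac
Chrd: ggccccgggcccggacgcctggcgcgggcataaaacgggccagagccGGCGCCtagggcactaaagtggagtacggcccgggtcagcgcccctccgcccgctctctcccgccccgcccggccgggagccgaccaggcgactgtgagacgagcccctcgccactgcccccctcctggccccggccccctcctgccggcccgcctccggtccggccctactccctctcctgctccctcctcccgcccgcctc

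Quality limits left 10307, 9641, 12604 and 20300 cells at Uninjured, 1, 3 and 7 dpi, and the median depth of a kept cell went down in that order, from 8638 to 3049 UMIs. Pairs of libraries shared 30 to 95 cell barcodes. Cells were put into classes by counts of marker genes: 83.5% to 96.5% of kept cells of a library got a class, and 8430, 3903, 6631 and 16446 cells were mesenchymal, with *Pdgfra*, *Col1a1*, *Dcn* and similar genes. A UMI of the blood cell gene *Ptprc* was in 0.641% of mesenchymal cells in the Uninjured library and in 5.29% to 8.44% after injury. A total of 5415 chondrocytes, with at least 4 of 8 cartilage markers, were found at 7 dpi. Of these 928 held exactly 4 markers, and 925 other mesenchymal cells of 7 dpi fell 1 marker short, so many cells lay close to the limit. The tendon gate, also of 8 markers, held 95, 45, 143 and 1374 cells, but the tendon genes *Mkx* and *Kera* were in 40.0% and 73.7% of them in the Uninjured library against 9.24% and 18.6% at 7 dpi, so the 7 dpi cells are called tendon marker cells and are not set against earlier ones. Levels are given as CPM, for which a gene's UMIs were added up within a class and divided by that class's total UMIs, times 1000000.

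In mesenchymal cells, 2 of 9 members were at least 2-fold higher at 1 dpi than in the Uninjured library, *Grem1* and *Bmper*, and none was at least 2-fold lower. Of 14793 genes with at least 20 UMIs in the higher library, 9.5% were at least 2-fold higher and 5.44% at least 2-fold lower. The *Bmper* ratio stood close to the 2-fold line and missed it with median-of-ratios size factors (log2 ratio 0.82) and without quality limits (0.97), and the *Grem1* ratio rested on few cells, described with that gene. At 3 dpi against 1 dpi no member was at least 2-fold higher and 1, *Chrd*, was lower, against 7.63% and 5.63% of 14702 genes. The *Chrd* log2 ratio went from -1.14 to -0.69 when every cell was thinned to 1000 UMIs. At 7 dpi against 3 dpi *Nog*, *Grem1* and *Bambi* were at least 2-fold higher and *Bmper* lower, against 12.9% and 8.59% of 15857 genes. Across the whole course, 7 dpi against Uninjured, *Grem1*, *Fstl3* and *Bambi* were at least 2-fold higher and *Chrd* and *Fst* lower, beside 20.6% and 11.7% of 16022 genes. The median log2 ratio of the 9 members over that span was -0.15, beside 0.08 for all genes tested.

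**Figure D1:**
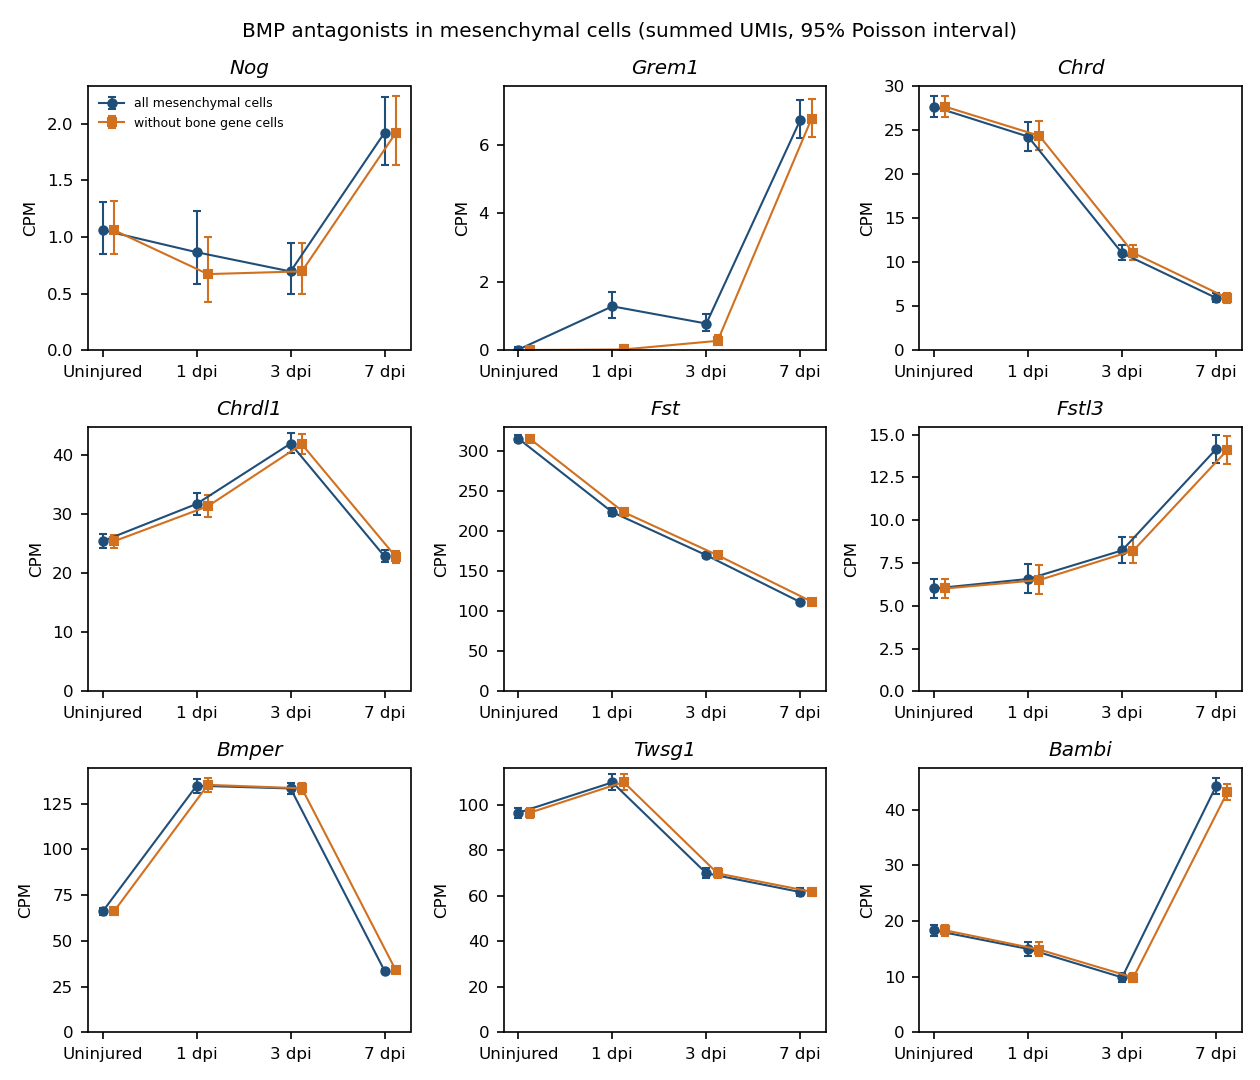
CPM of each member (vertical axes, each from 0) in the summed mesenchymal cells of the 4 libraries (horizontal axes), with 95% Poisson intervals; orange squares leave out cells with at least 2 of Lepr, Adipoq, Ibsp and Bglap2. Fst and Chrd are lower in each later library, Grem1, Fstl3 and Bambi are highest at 7 dpi, and the 1 dpi Grem1 point drops to 0.0281 CPM without those cells.

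*Fst* (chr13:114452290-114458951, minus strand, GRCm38 as for all gene positions here), encoding follistatin, was at 316, 224, 170.2 and 112 CPM in mesenchymal cells of the Uninjured, 1, 3 and 7 dpi libraries. Each library was lower than the one before, and no interval overlapped that of another library. The step from 1 to 3 dpi, a log2 ratio of -0.40, was -0.0121 when every cell was thinned to 1000 UMIs. The 7 dpi level was 2.83-fold below the Uninjured level. *Fst* stood in the same order within Pi16 fibroblasts, gated by *Pi16*, *Dpp4*, *Sema3c* and *Cd55*, with 325, 231, 196 and 188 CPM, but there the 3 and 7 dpi intervals overlapped. In Smoc2 fibroblasts, gated by *Smoc2*, *Col15a1*, *Hsd11b1* and *Lpl*, it was at 257, 203, 194 and 92.5 CPM, with overlap between 1 and 3 dpi, and the step to 7 dpi was 2.10-fold lower (ratio 0.477, 0.432 to 0.526). C7 fibroblasts, gated by *C7*, *Gdf10*, *Hmcn2* and *Apod*, held 653, 445, 477 and 119.8 CPM. They were the highest of the 3 fibroblast gates in the first 3 libraries, while the 7 dpi value rests on 46 UMIs in 79 cells.

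*Chrd* (chr16:20733127-20742384, plus strand), encoding chordin, was at 27.7, 24.3, 11.1 and 5.96 CPM in mesenchymal cells, again lower in each later library. Its ratio of 3 dpi to 1 dpi was 0.455 (0.410 to 0.505), and that of 7 dpi to Uninjured was 0.215 (0.195 to 0.237). Chordin is cleaved by Bmp1 and tolloid proteases, so its protein level need not follow its RNA. Inside the gates the differences were smaller: 31.7, 28.9, 20.03 and 14.6 CPM in Pi16 fibroblasts and 27.1, 29.1, 17.7 and 12.02 CPM in Smoc2 fibroblasts. In both gates the 3 and 7 dpi values lay below the first 2 libraries. At 7 dpi the Lrrc15 progenitors, gated by *Lrrc15*, *Tnn*, *Tnc* and *Aspn* and counting 4471 cells there against 2, 9 and 213 before, held 5.49 CPM, and chondrocytes held 3.77 CPM. Those cells therefore stood below both fibroblast gates in *Chrd*.

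*Bmper* (chr9:23223076-23485200, plus strand), encoding a secreted chordin-family protein that binds BMPs, was at 66.1, 135, 133 and 33.7 CPM in mesenchymal cells. The 1 and 3 dpi levels overlapped and stood above both ends of the course. The 1 dpi to Uninjured ratio was 2.04 (1.96 to 2.12), and the level at 7 dpi was 3.96-fold lower than at 3 dpi. In Smoc2 fibroblasts the levels were 107, 198, 188 and 103 CPM, so the first and last libraries overlapped there. In Pi16 fibroblasts they were 15.3, 32.9, 53.7 and 50.2 CPM, with no drop at 7 dpi beyond the interval (ratio to 3 dpi 0.934, 0.780 to 1.12). Smoc2 fibroblasts thus held 7.04-fold (6.39 to 7.78) the *Bmper* level of Pi16 fibroblasts before injury; of 8 members tested, 2 (*Nog* and *Bmper*) were at least 2-fold higher in Smoc2 fibroblasts and 1 (*Chrdl1*) lower, beside 13% and 7.25% of 13580 genes. The Lrrc15 progenitors and chondrocytes of 7 dpi held 22.3 and 22.2 CPM, below both fibroblast gates.

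*Chrdl1* (chrX:143285674-143394262, minus strand), encoding a chordin-like BMP binder, was at 25.4, 31.7, 41.9 and 22.8 CPM in mesenchymal cells, highest at 3 dpi. Before injury Smoc2 fibroblasts held 7.93 CPM and Pi16 fibroblasts 28.3 CPM, 3.56-fold apart. C7 fibroblasts were far above both, at 94.0, 160.3, 164 and 83.3 CPM.

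The steps between neighbouring libraries were also counted inside the 2 large fibroblast gates. In Pi16 fibroblasts 7 members had enough UMIs, and from Uninjured to 1 dpi *Bmper* alone was at least 2-fold higher and none lower, beside 8.06% and 4.57% of 12731 genes. No member passed 2-fold in either direction from 1 to 3 dpi there (3.65% and 2.48% of 11503 genes) or from 3 to 7 dpi (3.95% and 6.35% of 11073 genes). In Smoc2 fibroblasts *Grem1* was higher at 1 dpi than in the Uninjured library, on 25 UMIs in 4 cells against 1 UMI, and *Nog* lower, on 8 against 47 UMIs, beside 7.47% and 4.72% of 13449 genes. From 1 to 3 dpi none was higher and *Grem1* lower, on 8 UMIs in 2 cells (3.69% and 1.87% of 12649 genes). Of the 46 *Grem1* UMIs of all mesenchymal cells at 1 dpi 45 lay in cells that also carried bone and marrow stroma genes, described with *Grem1*, so both *Grem1* steps rest on such cells. From 3 to 7 dpi none was higher and *Fst* lower (5.16% and 5.89% of 12267 genes).

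**Figure D2:**
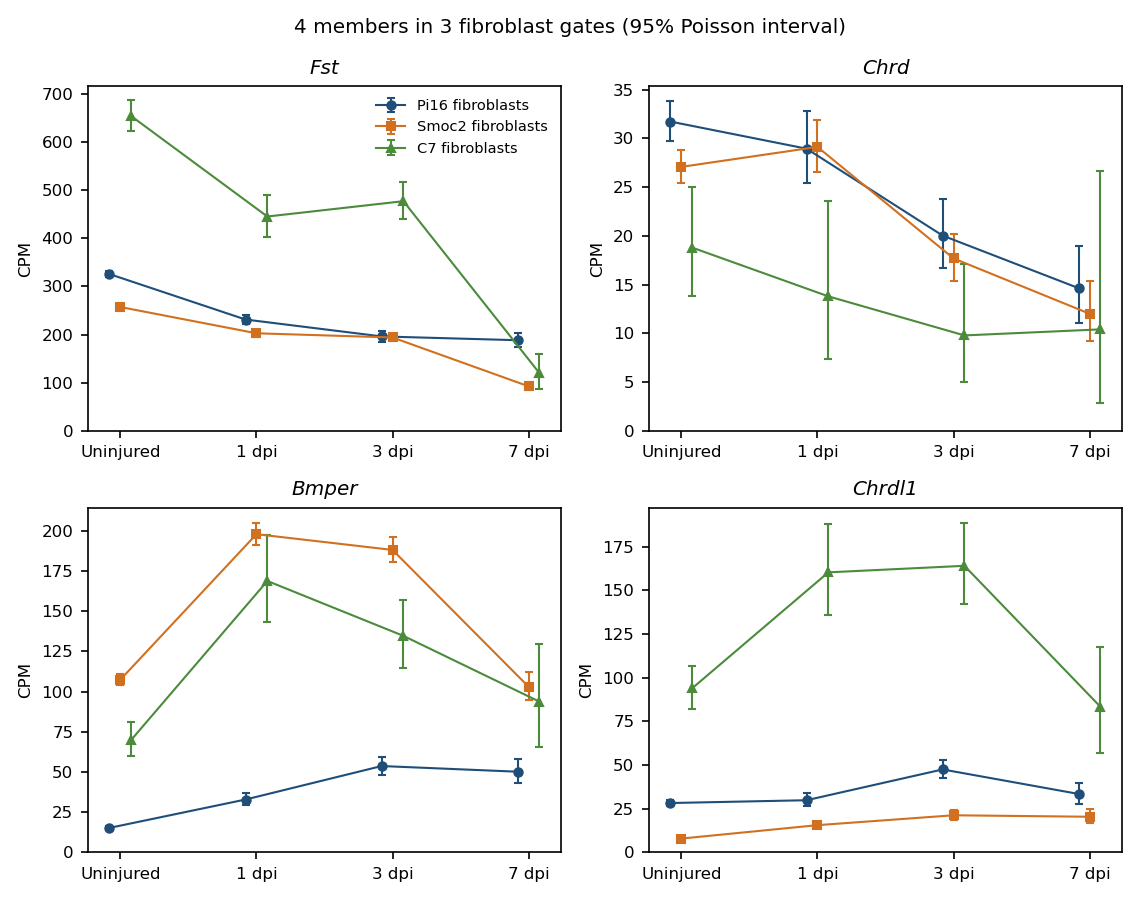
CPM of Fst, Chrd, Bmper and Chrdl1 (vertical axes, each from 0) in Pi16, Smoc2 and C7 fibroblasts of the 4 libraries (horizontal axes), with 95% Poisson intervals. Bmper separates Smoc2 (107 CPM before injury) from Pi16 fibroblasts (15.3 CPM), and Fst and Chrdl1 are highest in C7 fibroblasts in the first 3 libraries.

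*Twsg1* (chr17:65921972-65951226, minus strand), encoding twisted gastrulation, which binds BMPs together with chordin, was at 96.6, 109.9, 70.0 and 61.7 CPM in mesenchymal cells. None of its steps reached 2-fold, and its ratio of 1 dpi to Uninjured, 1.14, went below 1 with median-of-ratios size factors (log2 ratio -0.0237). *Fstl3* (chr10:79777272-79782630, plus strand), encoding a follistatin relative that binds activins, was at 6.01, 6.57, 8.24 and 14.2 CPM. The first 2 libraries overlapped and the last stood highest, and the 3 dpi to 1 dpi ratio of 1.25 turned (log2 ratio -0.0216) with thinned cells. The ratio of 7 dpi to Uninjured was 2.35 (2.11 to 2.62). At 7 dpi Lrrc15 progenitors held 15.8 CPM against 5.75 CPM in Pi16 fibroblasts, a ratio of 2.74 (1.78 to 4.43). In that pair 4 of 9 members were at least 2-fold higher in the progenitors (*Nog*, *Grem1*, *Fstl3* and *Bambi*) and 3 lower (*Chrd*, *Chrdl1* and *Bmper*), beside 11.3% and 6.04% of 13267 genes. The *Nog* ratio of that pair, 2.52, had an interval of 0.637 to 21.8 that includes no difference.

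*Grem1* (chr2:113746164-113758646, minus strand), encoding gremlin, was nearly absent before 7 dpi. Mesenchymal cells held 2 *Grem1* UMIs in the Uninjured library, 46 at 1 dpi, 45 at 3 dpi and 574 at 7 dpi, or 0.0253, 1.29, 0.784 and 6.73 CPM. The 7 dpi library stood 8.58-fold (6.33 to 11.9) above 3 dpi, a log2 ratio of 3.101 that was 2.24 with thinned cells, whereas the ratio of 1 dpi to Uninjured, 50.9, had an interval of 13.3 to 433 because it rests on 2 UMIs. Mononuclear phagocytes held no *Grem1* UMI in any library, where the limit that a count of 0 allows ranged from 0.205 to 2.06 CPM. At 7 dpi neutrophils and endothelial cells held 6.44 and 3.34 CPM, each from 1 UMI, so these levels cannot be told from those of mesenchymal cells at this depth. The 1 dpi UMIs lay in 9 cells. Of the 46, 45 were in 8 cells that also carried at least 2 of *Lepr*, *Adipoq*, *Ibsp* and *Bglap2*, genes of bone and marrow stroma; this set was chosen after the values were seen, and the cells are called bone gene cells below. At 3 dpi 29 of 45 UMIs lay in 6 such cells. The genes that led the cells with at least 2 *Grem1* UMIs were *Ibsp*, *Wif1* and *Spp1* at 1 dpi and *Ibsp*, *Adipoq* and *Gdpd2* at 3 dpi. *Ibsp* and *Adipoq* belong to the set itself, so its high share of the early UMIs followed in part from how it was chosen.

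Without the bone gene cells, which numbered 1, 14, 13 and 286, *Grem1* was at 0.0126, 0.0281, 0.279 and 6.76 CPM in mesenchymal cells. The 1 dpi value then came from 1 UMI and that of the Uninjured library from 1 UMI, both under the limit of 3 UMIs, so no fold is given. Of the 7 dpi *Grem1* UMIs 2.44% were in bone gene cells, and 354 mesenchymal cells held a *Grem1* UMI. *Ibsp*, a gene of the set, was also among the 10 leading genes of chondrocytes. The bone gene cells of 7 dpi therefore need not be the same kind of cell as the earlier ones. The genes leading the 7 dpi cells with at least 2 UMIs were *Wfdc12*, *Frzb*, *Cox4i2*, *Slpi* and *Ucma*, of which *Frzb* and *Ucma* are known from cartilage. Chondrocytes held 8.74 CPM, tendon marker cells 7.97 CPM and Lrrc15 progenitors 7.85 CPM, and these levels overlapped. Pi16 fibroblasts held 1 UMI there, and the ratio of progenitors to them, 30.05, had an interval of 5.32 to 1194.

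**Figure D3:**
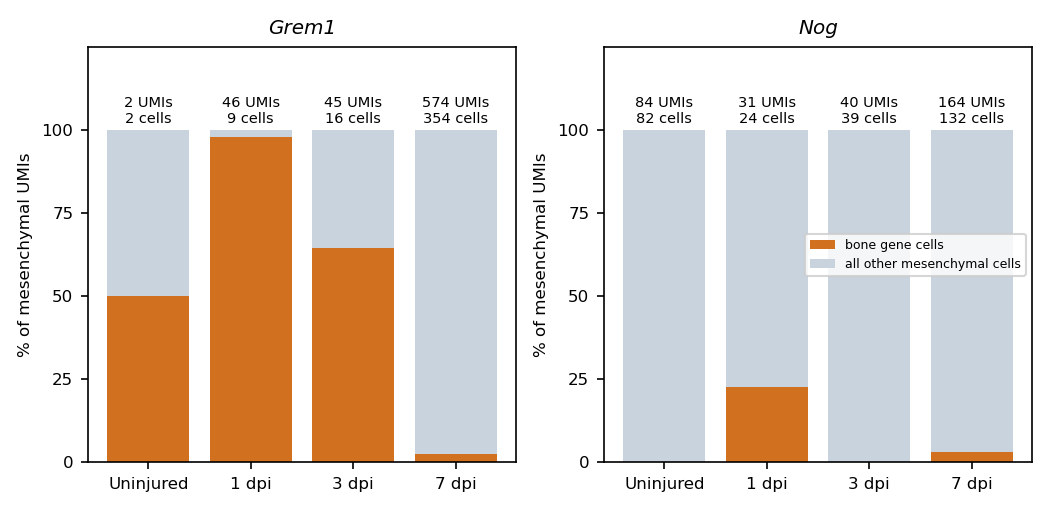
Share of mesenchymal Grem1 and Nog UMIs (vertical axes, percent) in cells with at least 2 of Lepr, Adipoq, Ibsp and Bglap2 (orange) and in all other mesenchymal cells (grey) per library (horizontal axes); the numbers above the bars give UMIs and cells with a UMI. Nearly all Grem1 UMIs of 1 dpi but 2.44% of those of 7 dpi lie in the orange cells.

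*Nog* (chr11:89300638-89302332, minus strand), encoding noggin, was at 1.06, 0.867, 0.697 and 1.92 CPM in mesenchymal cells, from 84, 31, 40 and 164 UMIs. The first 3 libraries overlapped and the 7 dpi library stood above them, 2.76-fold (1.94 to 4.001) above 3 dpi. That log2 ratio of 1.46 was 0.63 without chondrocytes and tendon marker cells and 0.72 with thinned cells, both under 2-fold. Without bone gene cells the 1 dpi level was 0.673 CPM. Of the 31 UMIs of 1 dpi 11 lay in 4 of the 9 cells gated as Lrrc15 progenitors there, so that level rests in part on few cells. Chondrocytes, 5415 of the 20300 kept cells at 7 dpi, held 58.5% of the *Nog* UMIs of all kept cells. Their level was 3.44 CPM, against 1.32 CPM in Lrrc15 progenitors, a ratio of 2.61 (1.71 to 4.09). Chondrocytes without a *Col10a1* UMI held 1.84 CPM, which overlapped with the progenitors. Satellite cells, the muscle stem cells, ranked first for *Nog* at 7 dpi with 3.69 CPM and overlapped with chondrocytes. Their level lay under the limit of 3 UMIs, so this rank is not firm. *Bambi* was the other member at least 2-fold higher in chondrocytes than in progenitors, 74.2 against 34.2 CPM, and no member was as much lower, beside 4.37% and 1.16% of 13943 genes.

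*Bambi* was at 18.3, 14.98, 9.88 and 44.2 CPM in mesenchymal cells, lowest at 3 dpi and highest at 7 dpi, with no overlap between libraries. Mononuclear phagocytes, the class taken as background below, held 26.3, 17.7, 15.9 and 13.7 CPM of it. The mesenchymal level therefore did not stand above that class in any library before 7 dpi. Other blood cell classes differed in the same 3 libraries. NK and T cells held 21.2, 18.7 and 12.5 CPM, B cells 14.6, 40.5 and 10.1 CPM, and neutrophils 4.03, 5.90 and 7.49 CPM. The comparison thus depends on the class taken as background, and whether the phagocyte level is expression was not tested. The step from 3 to 7 dpi was 4.48-fold (4.10 to 4.90), a log2 ratio of 2.16 that was 1.44 without chondrocytes and tendon marker cells. Among mesenchymal cells outside the chondrocyte and tendon gates the 7 dpi level was 26.7 CPM, below the 74.2 CPM of chondrocytes. *Bambi* is a known target of BMP and TGF-beta signalling in several cell types. In Pi16 fibroblasts its levels were 18.3, 12.1, 11.1 and 15.4 CPM and in Smoc2 fibroblasts 11.2, 16.4, 9.98 and 16.8 CPM.

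Chondrocytes of 7 dpi were divided by their UMIs of *Col10a1*, the collagen of hypertrophic cartilage. Cells with at least 3 such UMIs (685) were set against cells with 0 (4147), and their median depths were 3902 and 3685 UMIs. Of 9 members, 2 were at least 2-fold higher in the first set, *Nog* and *Bambi*, and 2 lower, *Grem1* and *Fst*, beside 3.02% and 5.25% of 13400 genes. *Nog* was at 13.7 CPM against 1.84 CPM, a ratio of 7.42 (4.81 to 11.5). *Bambi* was at 137 against 62.5 CPM, a ratio of 2.18 (1.97 to 2.42). *Grem1* was 3.59-fold lower, at 2.56 against 9.21 CPM (ratio 0.278, 0.125 to 0.538), and *Fst* was 2.09-fold lower, at 58.1 against 121 CPM. With chondrocytes taken from clusters of cells in place of marker counts, *Bambi* and *Fst* fell short of 2-fold, with log2 ratios of 0.96 and -0.89. *Chrdl1* and *Twsg1* had ratios of 1.48 and 1.38 with intervals above 1, and the intervals of *Chrd*, *Fstl3* and *Bmper* included 1.

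Finer steps of *Col10a1*, 0, 1 to 2, 3 to 9 and at least 10 UMIs, held 4147, 583, 360 and 325 cells. *Nog* was at 1.84, 3.87, 5.85 and 19.7 CPM over these steps. The last step stood above the others, whose neighbours overlapped. *Grem1* was at 9.21, 12.2, 3.25 and 2.02 CPM, with the drop after the second step, whose 38 UMIs lay in 12 cells with 22 in a single cell. After each cell was thinned to 1000 UMIs, a *Nog* UMI was found in 0.148% of chondrocytes without *Col10a1* and in 3.09% of those with at least 10 UMIs of it, the median depths being 3685 and 4411 UMIs. Unthinned, the shares were 0.892% and 8.00%, and 1 of the 304 mononuclear phagocytes of 7 dpi held a *Nog* UMI. Of the 81 chondrocytes with a *Nog* UMI 54.3% held *Col10a1* and 40.7% held *Ihh*, the hedgehog ligand of prehypertrophic cartilage, beside 23.4% and 12.6% of all chondrocytes, whose median depth was lower, 3711 against 7325 UMIs. Of the 156 with a *Grem1* UMI 12.2% held *Col10a1* and 9.62% *Ihh*. The median depth of these *Grem1* cells, 7272 UMIs, was close to that of the *Nog* cells, and 5 cells held both genes.

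**Figure D4:**
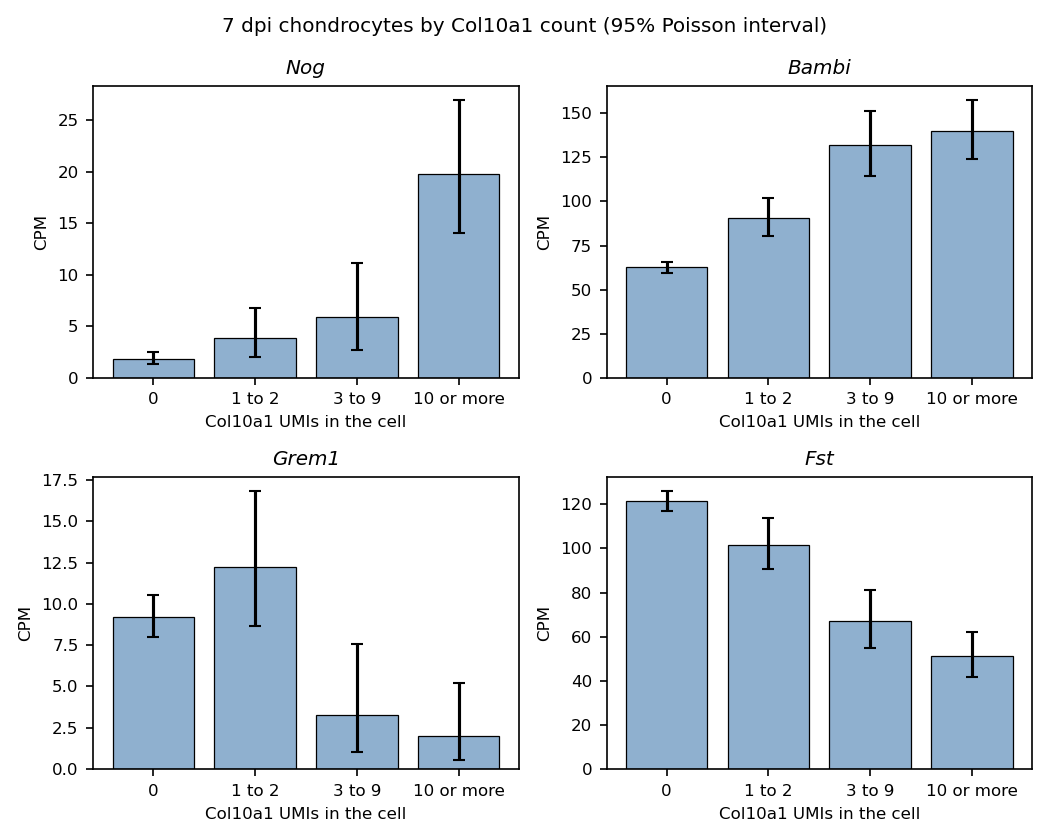
CPM of Nog, Bambi, Grem1 and Fst (vertical axes, each from 0) in 7 dpi chondrocytes by the number of Col10a1 UMIs in the cell (horizontal axes), as bars with 95% Poisson intervals. Nog goes from 1.84 to 19.7 CPM and Fst from 121 to 51.1 CPM between cells with 0 and with at least 10 Col10a1 UMIs.

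Across cell classes with at least 50 cells, the highest level was in a mesenchymal class for 7, 6, 5 and 5 of 9 members in the Uninjured, 1, 3 and 7 dpi libraries. The same count over all genes was not made. The mesenchymal classes large enough to rank also differed between libraries, so these counts have no common baseline. The Uninjured count includes *Nog*, whose 4.02 CPM in tendon marker cells came from 4 UMIs and overlapped with Schwann cells at 2.28 CPM. *Fst*, *Chrd*, *Bmper*, *Twsg1* and *Grem1* had their highest class in the mesenchymal lineage in every library. For *Twsg1* and *Grem1* the first and second classes overlapped each time. For *Chrd* they overlapped in every library but 1 dpi. The second class at 7 dpi was endothelial cells, at 6.67 CPM against 7.42 CPM, but the endothelial level lay under the limit of 3 UMIs. The *Grem1* order is not firm, since it rests on 2 UMIs in the Uninjured library, and at 1 dpi the mesenchymal level without bone gene cells, 0.0281 CPM, lay under the 0.257 CPM of neutrophils and the 0.223 CPM of B cells, each from 1 UMI. Mesenchymal cells outside the chondrocyte and tendon gates, which include the Lrrc15 progenitors, came first for *Bmper* and *Fst* each time. For *Fst* at 7 dpi they overlapped with chondrocytes, 116 and 112 CPM. Mononuclear phagocytes, which are taken here as the background, held 1.60, 1.64, 2.96 and 5.49 CPM of *Fst*.

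Among the ranked classes, Schwann cells, the glia of peripheral nerves, were first for *Chrdl1* and *Fstl3* in all 4 libraries. The class held 230, 185, 151 and 146 cells, with *Sox10* in 61.6% to 76.2% and the fibroblast gene *Pdgfra* in at most 1.08%. Other mesenchymal markers were found in more of these cells, *Col1a1* in 60.4%, 53.0%, 42.4% and 84.9% and *Dcn* in 40.4%, 41.1%, 27.8% and 19.2%, and their part in the values below was not tested. *Chrdl1* was at 122, 159.5, 195 and 55.5 CPM. The 3 dpi value stood above the Uninjured one, the 1 dpi value overlapped with both, and the 7 dpi value stood below all 3. Tendon marker cells held 107 and 141 CPM in the Uninjured and 3 dpi libraries and overlapped with Schwann cells there, and the 45 tendon marker cells of 1 dpi, too few for the ranking, held 184 CPM. C7 fibroblasts were ranked only as part of the other mesenchymal cells. Taken alone they held 94.0, 160.3, 164 and 83.3 CPM of *Chrdl1*, which overlapped with Schwann cells in every library. *Fstl3* was at 96.9, 69.3, 90.5 and 71.0 CPM in Schwann cells. These 4 values overlapped, and in each library the interval stood above that of the next class, which was tendon marker cells at 59.3 CPM before injury and mural cells at 23.3 CPM at 7 dpi. Only classes with at least 50 cells were ranked, and 12 mural cells at 3 dpi held 137 CPM of *Fstl3* from 9 UMIs. Schwann cells of 7 dpi also held *Fst* at 64.4 CPM, from 29 UMIs in 17 cells, against 9.12, 9.89 and 0 CPM before, where a count of 0 allows up to 8.23 CPM. *Pdgfra* was in none of these 17 cells, *Sox10* in 82.4%, *Dcn* in 11.8% and *Col1a1* in 100%.

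Of these Schwann values 5 members had enough UMIs to be set between neighbouring time points, and none was at least 2-fold apart between Uninjured and 1 dpi, beside 9.04% and 4.76% of 6805 genes, or between 1 and 3 dpi, beside 0.917% and 4.21% of 6219 genes. The step from 3 to 7 dpi was not counted in Schwann cells, so these counts do not cover the whole course. Over that step *Chrdl1* went from 195 to 55.5 CPM, *Twsg1* from 65.8 to 24.4 CPM and *Fst* from 0 to 64.4 CPM. *Bambi* in endothelial cells was at 71.0, 58.9 and 93.4 CPM at 1, 3 and 7 dpi, with overlapping intervals. In tendon marker cells it was at 107 and 12.3 CPM in the Uninjured and 3 dpi libraries, and these intervals did not overlap. In these cells 6 members were tested from Uninjured to 1 dpi, of which none was at least 2-fold higher and *Fst* and *Fstl3* were lower, beside 7.64% and 11.9% of 5522 genes. From 1 to 3 dpi *Fst* and *Bmper* were higher and *Bambi* lower of 5 tested, beside 11.7% and 6.4% of 7145 genes, with 45 cells behind the 1 dpi values. *Nog* at 3 dpi was highest in endothelial cells, 24.5 CPM, but this was 10 UMIs in 5 of 124 cells, with 5 in a single cell. A small class of myocytes at 7 dpi, 43 cells with *Myog* in all of them, held *Fst* at 173 CPM from 48 UMIs in 12 cells. *Twsg1* was broad: satellite cells, the muscle stem cells, held 55.0, 97.5, 58.3 and 57.3 CPM, and B cells held 10.2 to 38.0 CPM.

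**Figure D5:**
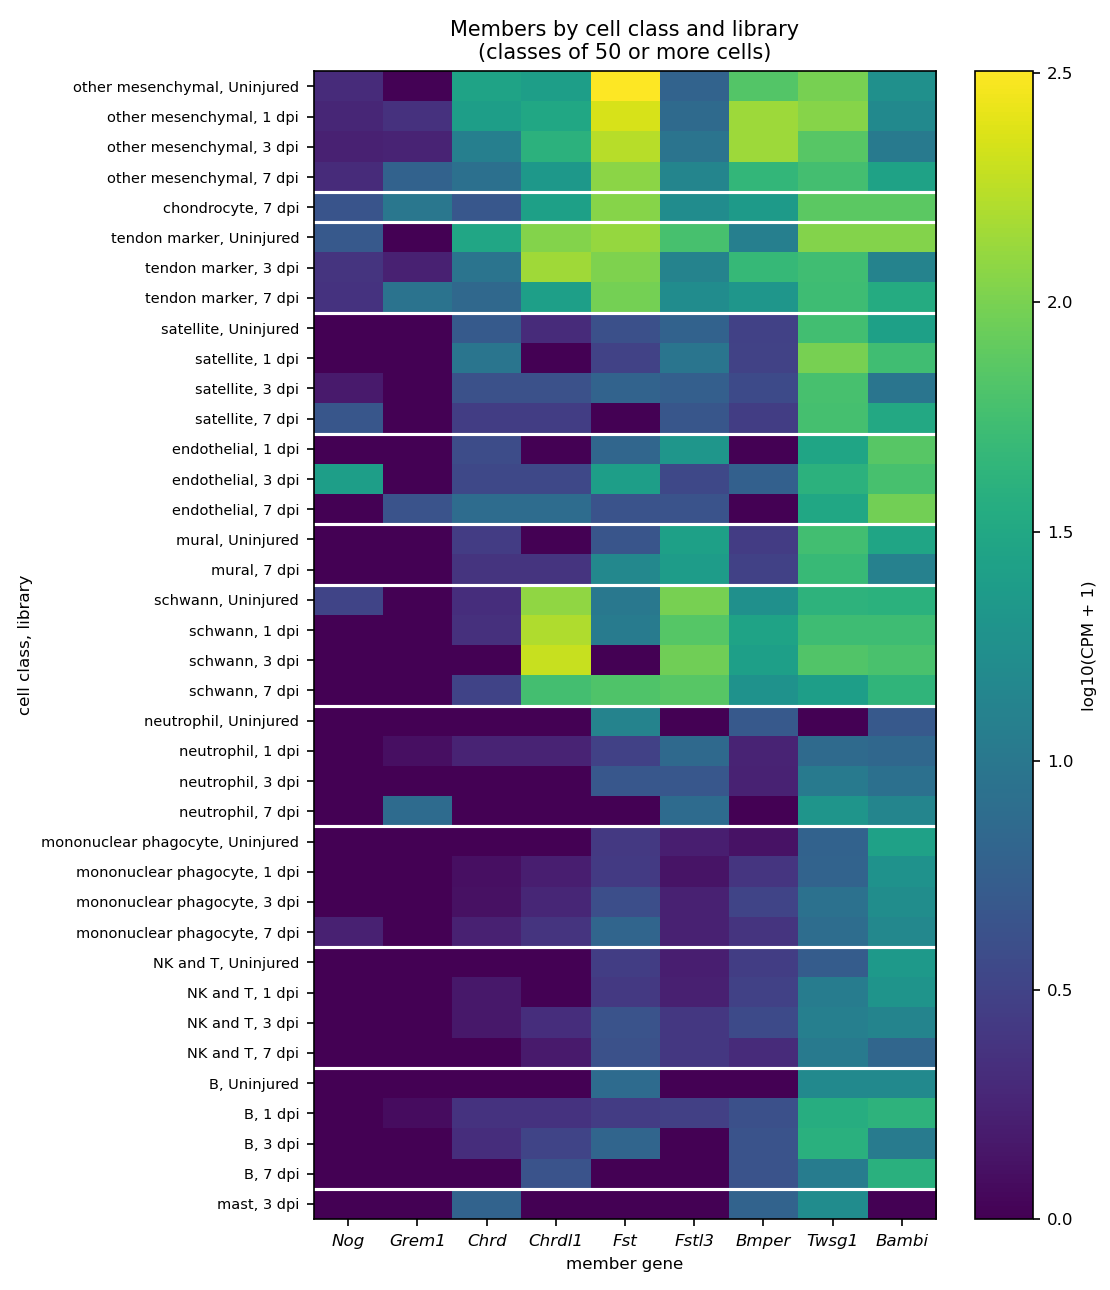
Level of each member (horizontal axis) as log10 of CPM plus 1, by colour, in each cell class and library with at least 50 cells (vertical axis). Fst and Bmper are brightest in mesenchymal classes, Chrdl1 and Fstl3 in Schwann cells (122 and 96.9 CPM before injury), and Twsg1 and Bambi are spread over many classes. C7 fibroblasts, high in Chrdl1, are not drawn as a class of their own.

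Over the 38 class and library sums of at least 50 cells, pairs of members differed in how alike they were. The sums share libraries and cells of 1 lineage, so these are descriptions. On log2(CPM + 10) Pearson's r was 0.84 between *Fst* and *Bmper*, 0.79 between *Fst* and *Chrd* and 0.79 between *Chrdl1* and *Fstl3*, and 0.04 between *Bmper* and *Bambi*. Among 13238 genes, the 3 most like *Fst* were *Insyn1* (0.95), *Fbln7* (0.92) and *Sema3c* (0.92). Those most like *Chrdl1* were *Mmp16* (0.93), *Apod* (0.92) and *Armh4* (0.92), and those most like *Bmper* were *Clip4* (0.92), *Serpina3n* (0.91) and *Ugdh* (0.91). For *Chrd* they were *Glt8d2* (0.92), *Ptgfr* (0.91) and *Tmem132c* (0.91), for *Fstl3* *Insc* (0.92), *Magi2* (0.90) and *Lrrc75a* (0.90), and for *Twsg1* *Frmd6* (0.90), *Sspn* (0.89) and *Nbl1* (0.89). *Bambi* had lower values, with *Map4k3* (0.74), *Cd200* (0.73) and *Etl4* (0.72). *Sema3c* and *Apod* are also gate markers. *Nog* exceeded 10 CPM in 1 sum and *Grem1* in none, so no likeness is given for them. *Chrd* exceeded it in 4 of 38 sums, so its values, among them the 0.79 with *Fst*, rest on few sums.

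Most BMP and GDF ligands were lower at the end of the course in the summed mesenchymal cells. The make-up of these cells also differed, since chondrocytes were found at 7 dpi only and Lrrc15 progenitors were few before it. Its part in the values of this list and the lists that follow was not tested. Of 9 tested BMP and GDF ligands of a list of 10, 8 were at least 2-fold lower at 7 dpi than in the Uninjured library and 1 higher, beside 11.7% of all genes lower and 20.6% higher, with a median log2 ratio of -2.71 beside 0.08 for all genes. Inside the gates none of 7 tested ligands passed 2-fold from 1 to 3 dpi. Of all genes 3.65% were higher and 2.48% lower in Pi16 fibroblasts, and 3.69% and 1.87% in Smoc2 fibroblasts. From 3 to 7 dpi 5 of 7 ligands were lower in Pi16 and 3 of 7 in Smoc2 fibroblasts, and none was higher. The shares of all genes lower were 6.35% and 5.89%, and those higher 3.95% and 5.16%. *Bmp4*, which the transgene also encodes, was at 119.7, 102, 61.6 and 17.2 CPM in the summed mesenchymal cells. *Bmp2* was at 116, 129, 41.4 and 8.71 CPM, and *Bmp7* at 24.98, 12.2, 4.15 and 1.42 CPM. *Chrd* and *Fst* were lower over the same libraries, and *Grem1* and *Bambi* higher.

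Of 4 activin and myostatin ligands, 3 were at least 2-fold higher and 1 lower over that span, and the same shares of all genes, 20.6% higher and 11.7% lower, stand beside each list that follows. *Inhba*, which encodes a subunit of activins, was at 16.3, 17.6, 64.1 and 98.2 CPM. It was highest in the library where *Fst* was lowest, and its first 2 levels were close. Of 10 receptors, 1 was higher and 5 lower, *Bmpr1b* being the higher one at 0.366, 0.475, 2.06 and 4.80 CPM. Of 8 response genes, 3 were higher and none lower: *Id1* was at 16.9, 15.9, 27.8 and 37.6 CPM, and *Smad9* and *Atoh8* were the others. Of 12 further antagonists, 10 were tested, 3 were higher and 2 lower, close to the shares over all genes. *Smoc1*, a secreted BMP inhibitor, was the highest of these by ratio, at 1.48, 1.76, 8.05 and 20.5 CPM. Of the 4 genes of the chordin protease list, not all of which encode proteases, 1, *Tll2*, was lower, on 5 against 59 UMIs.

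Within 7 dpi chondrocytes *Bmp2* and *Bmp6* were higher in cells with at least 3 *Col10a1* UMIs, at 29.6 against 5.40 CPM and 45.3 against 6.596 CPM. *Nog* was higher and *Grem1* lower in the same cells. Of 7 ligands tested there, 2 were at least 2-fold higher and 2 lower, the latter being *Bmp3* and *Bmp4*, beside 3.02% and 5.25% of 13400 genes.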

How the data were processed

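Single-cell suspensions were sequenced on the 10x Genomics platform, 1 library per time point. The submitters' processing notes name Cell Ranger 5.0.0, the mm10 build and Seurat 3.1.1. The values deposited by the authors are raw UMI counts per gene and cell. Per the labels, Cell Ranger aligned the reads with STAR and reads were down-sampled where needed; the sources used here do not give the order of that step and the counts used. Gene positions came from GENCODE M21 (GRCm38), to which 32235 of 32285 identifiers matched.

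The members and lists were chosen with earlier results of these data known. Cells within 2 SD of the library mean in log10 UMIs and log10 genes and with at most 10% mitochondrial UMIs were kept, and the 7.5% with the highest Scrublet scores (scanpy 1.11.5) were removed as doublets. A class needed at least 3 of 8 markers and a lead of 2 over every other lineage. Chondrocytes and tendon marker cells needed 4 of 8. A gate within the other mesenchymal cells needed 2 of 4 markers and a lead of 1. UMIs were summed per class and library and divided by the class total. Exact Poisson intervals were used for levels and conditional binomial intervals for ratios, and the method for ratios was tested on simulated data. Those data were drawn as independent Poisson counts, the model behind the intervals. The simulation therefore cannot show how the intervals do where UMIs lie in few cells. A gene entered a comparison with at least 20 UMIs in the higher group, and a ratio past 2-fold was counted. Named genes were the members, the listed pathway genes past 2-fold with at least 100 UMIs or set beside a member, and the 3 genes (of at least 500 UMIs) most correlated with each member; *Tll2* and *Bmp3* fell outside this rule and were named after their values were seen, as were leading genes of *Grem1* cells. Deposited totals were 91146335 to 129007669 UMIs per library.

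Each alternative changed 1 choice: no quality filter, doublets kept, a lead of 1 marker, classes from Leiden clusters, median-of-ratios size factors, cells thinned to 1000 UMIs, no minimum of UMIs, and chondrocytes and tendon marker cells left out. Leaving out bone gene cells or cells with a *Ptprc* UMI was added after seeing the data.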

Additional observations from a re-analysis of the deposited data

Results flagged for a closer look

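The same step between libraries gave ratios on opposite sides of 1 in different cell classes for 2 members, with both counting intervals clear of 1; the difference itself was not tested. *Bambi* at 1 dpi against Uninjured had a ratio of 1.47 (1.25 to 1.72) in Smoc2 fibroblasts and 0.659 (0.529 to 0.815) in Pi16 fibroblasts. *Fst* at 3 dpi against 1 dpi had a ratio of 3.57 (1.89 to 7.59) in tendon marker cells, on 153 against 10 UMIs, and 0.848 (0.790 to 0.910) in Pi16 fibroblasts. The tendon marker cells with a *Fst* UMI numbered 27 at 3 dpi and 4 at 1 dpi.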

How the results depend on the processing

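No paired analysis was possible because each time point had 1 library. Of 88 recomputed counts 79 stayed within 1.5 times the first value. At 1 dpi against Uninjured the number of members at least 2-fold higher went from 2 to 1 without the quality filter, with median-of-ratios size factors, with thinning to 1000 UMIs and without bone gene cells. With thinning the number lower at 3 dpi went from 1 to 0, and the number lower at 7 dpi against 3 dpi from 1 to 4, where *Chrd*, *Chrdl1* and *Fst* joined *Bmper*. Thinning gives every cell equal weight, and *Nog* (log2 ratio 0.72) then missed 2-fold while *Fstl3* (1.38) passed it, so the number higher stayed at 3. With Leiden clusters the number highest in a mesenchymal class at 3 dpi was 3, and the numbers higher and lower with *Col10a1* were 1 and 1. These clusters also changed with the numerical precision and processor settings of the computation, and the first 2 of these 3 counts moved by 1 member with them, so they are less firm than the others. Of 305 recomputed log2 ratios, 256 stayed within the 95% interval of the first value and 46 moved out of it, 20 of these among the 26 recomputed with thinning. Dropping the minimum of UMIs could not move any value, since all 9 members already passed it in these comparisons. That setting gave 27 of the 256 ratios and 6 of the 79 counts that stayed, and these say nothing about stability. Among ratios whose first interval excluded no difference, 3 reversed: *Fstl3* at 3 dpi against 1 dpi was -0.0216 with thinning, *Twsg1* at 1 dpi against Uninjured was -0.0237 with median-of-ratios size factors, and *Grem1* at 3 dpi against 1 dpi was 3.31 without bone gene cells, where the 1 dpi value is 1 UMI. Ratios whose first interval included no difference also changed sign: *Nog* at 3 dpi against 1 dpi was 2.30 with thinning, which left 1 cell with a *Nog* UMI at 1 dpi and 8 at 3 dpi, *Fstl3* at 1 dpi against Uninjured was -0.21 with thinning, *Bmper* at 3 dpi against 1 dpi was 0.05 with median-of-ratios size factors, and *Fstl3* with *Col10a1* was 0.03 with Leiden clusters. The cause of the other changes was not tested. The median log2 ratio of genes with at least 100 UMIs in the higher library was 0.16, -0.06 and -0.10 over the 3 steps in mesenchymal cells. Depth limits *Nog* and *Grem1*, which had 345 and 687 UMIs in all kept cells.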
